A study of Homo sapiens with 12 samples.

Results

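The genes described here act in DNA mismatch repair: MSH6, MSH3, PMS2, PMS1, MLH3 and EXO1. They were chosen by name, as the features of the deposited expression table annotated to these 6 symbols, out of 17687 named genes, and each had 1 feature. Other mismatch repair genes were not analysed here, so counts over the 6 do not cover the pathway. RNA of 2 established human colorectal cancer lines, HCT 116 and DLD1, was measured on 12 single-colour Affymetrix arrays. The groups were HCT 116 siBRG1, HCT 116 siControl, DLD1 siBRG1 and DLD1 siControl, with 3 arrays each. The siBRG1 cells had been given a small interfering RNA against BRG1, the SMARCA4 product that drives SWI/SNF chromatin remodelling, and the siControl cells a control siRNA. Neither the siRNA sequence nor the treatment time is stated in the labels. The study asked what suppression of BRG1 does to colorectal cancer cells.

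Mismatch repair removes base mismatches and small loops left behind by DNA polymerases. A MutS heterodimer recognises the error, a MutL heterodimer nicks the new strand, the exonuclease EXO1 removes the stretch, and replication proteins fill it in. MSH6 and MSH3 take turns as the second subunit of MutS, with MSH6 directing it to base mismatches and short loops and MSH3 to larger loops; PMS2, PMS1 and MLH3 do likewise in MutL. Both lines are known to lack mismatch repair and to have unstable microsatellites, through different genes: DLD1 is known for inactivating mutations of MSH6, and HCT 116 for lesions of other genes, among them a frameshift in MSH3. An expression array measures the amount of RNA and not these mutations.

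The promoters of the 6 genes are shown because the siBRG1 values of these genes are set beside those of S phase genes, many of which are controlled by E2F factors. Each sequence is taken from RefSeq (GRCh38.p14) and runs from 130 bases before the annotated transcription start to 20 after it, 5′ to 3′ on the strand of the gene. Capitals mark 8-base E2F-type motifs, searched on both strands as TTTCCCGC, TTTGGCGC, TTTGCCGC and TTTCGCGC. The windows were chr2:47783015-47783164 (plus strand) for MSH6, chr5:80654522-80654671 (plus) for MSH3, chr7:6009087-6009236 (minus) for PMS2, chr2:189784320-189784469 (plus) for PMS1, chr14:75051448-75051597 (minus) for MLH3 and chr1:241848074-241848223 (plus) for EXO1.
MSH6: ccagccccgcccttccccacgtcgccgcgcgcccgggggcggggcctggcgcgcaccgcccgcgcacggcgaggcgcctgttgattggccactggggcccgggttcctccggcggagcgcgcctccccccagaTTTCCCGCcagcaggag
MSH3: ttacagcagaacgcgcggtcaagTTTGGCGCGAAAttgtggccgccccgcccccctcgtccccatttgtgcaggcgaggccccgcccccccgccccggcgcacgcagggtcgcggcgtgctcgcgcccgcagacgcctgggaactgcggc
PMS2: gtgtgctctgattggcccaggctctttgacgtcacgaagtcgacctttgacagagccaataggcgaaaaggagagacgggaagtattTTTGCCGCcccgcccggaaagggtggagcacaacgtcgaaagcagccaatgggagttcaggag
PMS1: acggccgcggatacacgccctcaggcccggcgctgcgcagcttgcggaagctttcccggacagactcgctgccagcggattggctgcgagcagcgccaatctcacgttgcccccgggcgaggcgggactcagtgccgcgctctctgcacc
MLH3: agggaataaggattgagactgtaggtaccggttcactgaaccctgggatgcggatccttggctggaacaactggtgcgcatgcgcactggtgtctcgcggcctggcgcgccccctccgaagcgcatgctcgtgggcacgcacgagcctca
EXO1: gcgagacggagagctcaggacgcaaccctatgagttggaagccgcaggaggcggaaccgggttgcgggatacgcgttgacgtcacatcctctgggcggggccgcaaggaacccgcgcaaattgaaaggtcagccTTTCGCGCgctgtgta

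The motif TTTCCCGC began at position 4 of MSH6, counted from 1 at the start site. In MSH3, TTTGGCGC began at position -107, and TTTCGCGC on the opposite strand overlapped it from position -103. TTTGCCGC began at position -43 of PMS2 and TTTCGCGC at position 5 of EXO1. PMS1 and MLH3 held none of these letters in their windows. Over the RefSeq windows of 300 bases, 4 of the 6 genes held a motif, against 5.35% of the 14250 measured genes with a window (762 genes) and 17 of 28 genes of the S phase list. Among the gap-filling and other repair-linked genes read below as partner genes, 5 of 21 with a window held a motif. A match describes the letters only and is not a measured binding site.

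SMARCA4, the target of the siRNA, fell in both lines. It had levels of 6.78, 6.39 and 7.03 in HCT 116 siBRG1 arrays, against 10.12, 10.15 and 9.59 in HCT 116 siControl arrays, on the deposited log2 scale. It had 6.29, 6.55 and 6.31 in DLD1 siBRG1 arrays, against 10.31, 9.95 and 10.29 in DLD1 siControl arrays. The fall was -3.22 (SE 0.21, adjusted p = 1.14e-06) in HCT 116 and -3.80 (SE 0.21, adjusted p = 4.56e-07) in DLD1, by limma across all genes with Benjamini-Hochberg adjustment, as for every adjusted p here. A gene is said to have passed the test, or to be called, at an adjusted p under 0.05. Arrays of a group correlated at 0.989 to 0.995 across genes and arrays of different lines at 0.937 to 0.948, and HCT 116 siControl replicate 1 deviated most from its group (root mean square 0.32, against 0.227 to 0.285 for the other 11 arrays). Markers were set against the median gene of each group (6.86 over all arrays). Of the colorectal epithelial markers, 5 of 8 in both HCT 116 groups and 6 of 8 in both DLD1 groups lay above it. The intestinal cadherin gene CDH17 stood at 3.96 in HCT 116 siBRG1 and 3.93 in HCT 116 siControl, against 12.79 in DLD1 siBRG1 and 12.65 in DLD1 siControl. Endothelial markers lay above the median gene in 0 of 5 cases in every group, fibroblast markers in 1 of 6, and immune markers in 1 or 2 of 6. Of the immune markers CD68 was higher in HCT 116 siBRG1, at 7.05 against 5.76 in HCT 116 siControl (1.29, adjusted p = 0.0036), and its part in other siBRG1 values was not tested. CDH17 and CD68 were named after their values were seen.

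Most of the 6 genes differed between the cell lines, MSH6 and MSH3 by the most. In siControl cells, 5 of the 6 differed between HCT 116 and DLD1 (3 higher and 2 lower in HCT 116), where 27.6% of all genes were called (13.6% higher, 14% lower). In siBRG1 cells the count was again 5 (3 higher, 2 lower), where 30.8% of all genes were called (14% higher, 16.8% lower). The array medians of HCT 116 siBRG1 lay 0.12 below those of DLD1 siBRG1, and differences are given as deposited. Both counts were above these shares. The 6 genes were chosen with earlier results of these data known, so the counts are no test of the genes as a group.

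**Figure D1:**
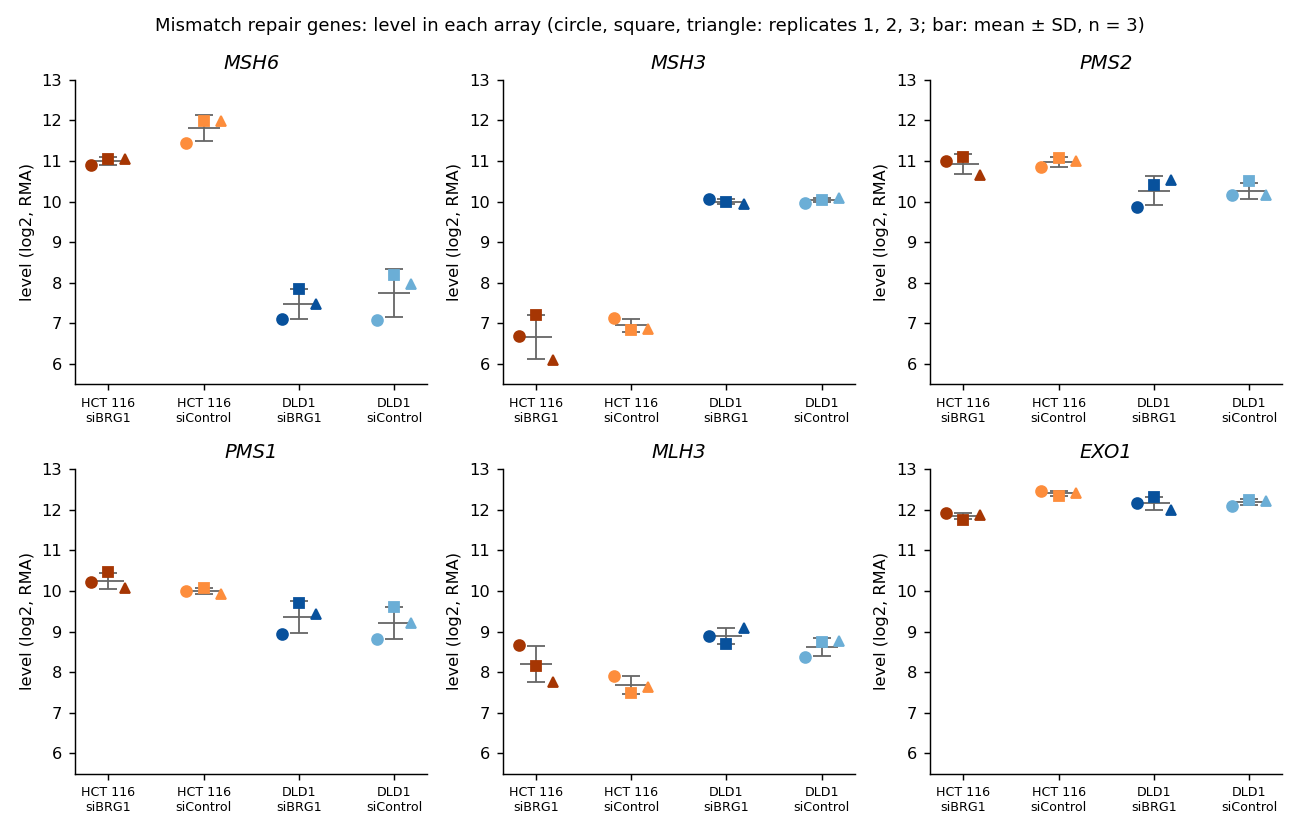
Log2 level of each mismatch repair gene on every array (vertical axis, deposited RMA scale), by group (horizontal axis). Symbols mark the replicates and grey bars the mean ± SD (n = 3). MSH6 is lower on all 6 DLD1 arrays, MSH3 is lower on all 6 HCT 116 arrays, and the other genes differ less between lines.

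MSH6, the subunit that directs MutS to base mismatches, was higher in HCT 116 than in DLD1. Its levels were 10.90, 11.06 and 11.04 in HCT 116 siBRG1 and 11.45, 11.98 and 11.99 in HCT 116 siControl. In DLD1 siBRG1 they were 7.10, 7.86 and 7.48, and in DLD1 siControl 7.08, 8.20 and 7.98. All 6 HCT 116 arrays lay above all 6 DLD1 arrays. The lines were without overlap, in either direction, for 22.4% of all genes. In siControl cells MSH6 averaged 11.81 ± 0.31 in HCT 116 and 7.75 ± 0.59 in DLD1 (SD, n = 3 each). The difference was 4.05 (SE 0.28, 95% interval 3.47 to 4.64, adjusted p = 2.18e-08), or 16.6-fold, the 117th highest of the 17687 genes. In siBRG1 cells it was 3.52 (SE 0.28, adjusted p = 1.02e-07), or 11.5-fold.

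In order of group means, MSH6 was lowest in DLD1 siBRG1 (7.48) and DLD1 siControl (7.75), whose arrays overlapped. HCT 116 siBRG1 (11.00) and HCT 116 siControl (11.81) followed, each without overlap with the group below it. Both DLD1 means lay above the median gene over all arrays (6.86), so MSH6 was low in DLD1 only beside HCT 116. The table has no detection calls, so it cannot be told how much of a low level is background.

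MSH3, the subunit for larger loops, had the reverse pattern. Its levels were 6.70, 7.21 and 6.11 in HCT 116 siBRG1 and 7.13, 6.85 and 6.86 in HCT 116 siControl. In DLD1 siBRG1 they were 10.07, 9.99 and 9.95, and in DLD1 siControl 9.97, 10.05 and 10.09. Every HCT 116 array lay below every DLD1 array. In siControl cells MSH3 averaged 6.95 ± 0.16 in HCT 116 and 10.04 ± 0.06 in DLD1 (SD, n = 3 each). The difference was -3.09 (SE 0.23, 95% interval -3.58 to -2.60, adjusted p = 5.76e-08), or 8.52-fold lower in HCT 116, the 243rd lowest of all genes. In siBRG1 cells it was -3.33 (SE 0.23, adjusted p = 2.11e-08), or 10.1-fold lower. The 2 HCT 116 groups (means 6.67 with siBRG1, 6.95 with siControl) overlapped in their arrays, as did the DLD1 groups. These HCT 116 means lay just below and just above the median gene over all arrays (6.86). Both line differences of MSH6 and of MSH3 stayed past the test in every alternative run.

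Genes next to MSH3 and MSH6 on the chromosome were read from the same arrays. Beside MSH3, RASGRF2, an exchange factor for Ras family proteins, differed more than MSH3 itself. It averaged 5.12 ± 0.33 in HCT 116 siControl and 10.95 ± 0.24 in DLD1 siControl (SD, n = 3 each), a difference of -5.83 (SE 0.27, adjusted p = 2.32e-10). In siBRG1 cells the difference was -7.17 (SE 0.27, adjusted p = 1.87e-11), with 4.30 ± 0.61 in HCT 116 and 11.47 ± 0.13 in DLD1. How much of the HCT 116 levels of RASGRF2 is background cannot be told, so both sizes are uncertain. On the other side, the nearest gene analysed, ANKRD34B, had a difference of 0.18 in siControl cells (SE 0.20, adjusted p = 0.591). Beside MSH6, FBXO11, a substrate receptor of a ubiquitin ligase whose annotation overlaps the end of MSH6, had 0.04 (SE 0.19, adjusted p = 0.91) and the potassium channel gene KCNK12 had 0.47 (SE 0.28, adjusted p = 0.259). Between siBRG1 cells FBXO11 (0.20, SE 0.19, adjusted p = 0.483), KCNK12 (0.55, SE 0.28, adjusted p = 0.174) and ANKRD34B (-0.02, SE 0.20, adjusted p = 0.956) were not called either.

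**Figure D2:**
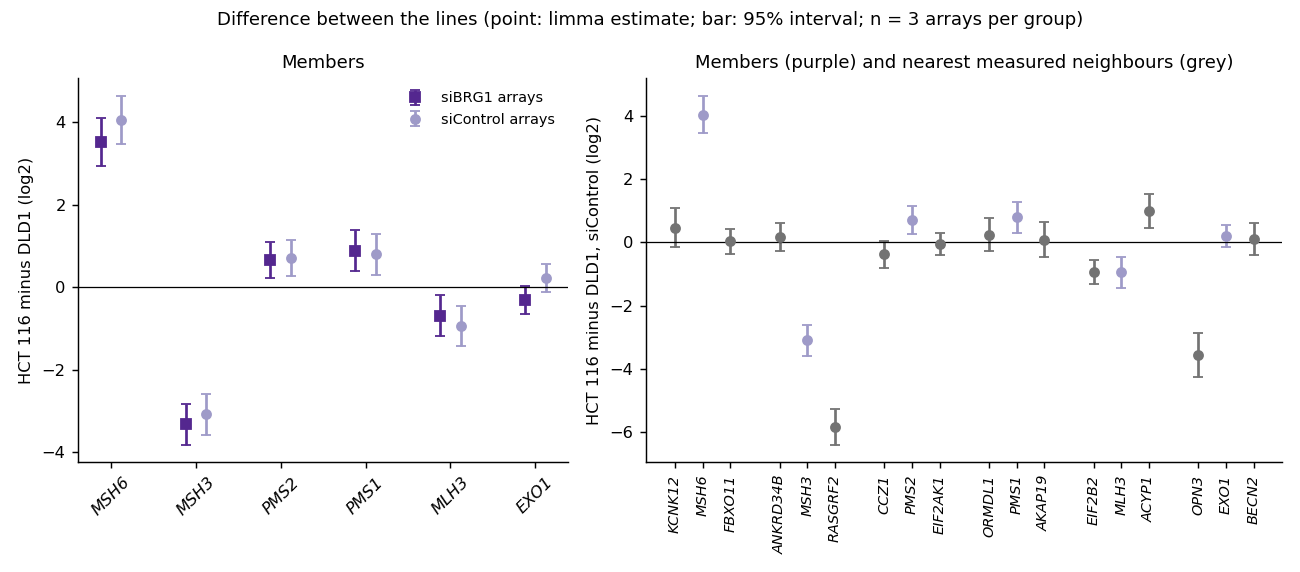
HCT 116 minus DLD1 on the log2 scale (vertical axes), with 95% intervals from limma (3 arrays per group). Left, the 6 genes in siBRG1 and siControl cells; right, each gene in siControl cells between its nearest analysed neighbours. MSH6 lies near 4 and MSH3 near -3, and RASGRF2 beside MSH3 lies at -5.83.

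The MutL genes differed by smaller amounts. PMS2 pairs in the main MutL complex and carries its nicking endonuclease. Its levels were 10.99, 11.11 and 10.65 in HCT 116 siBRG1 and 10.84, 11.08 and 11.01 in HCT 116 siControl. They were 9.87, 10.41 and 10.52 in DLD1 siBRG1 and 10.15, 10.50 and 10.15 in DLD1 siControl. All 6 HCT 116 arrays were higher than all 6 DLD1 arrays. The line difference was 0.71 (SE 0.21, adjusted p = 0.0185) in siControl cells and 0.65 (SE 0.21, adjusted p = 0.0262) in siBRG1 cells. PMS2 has near-identical pseudogene copies, which probes may not tell apart, so its level is uncertain.

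Both PMS2 calls were lost without single arrays. In siControl cells the adjusted p was 0.0661 without DLD1 siControl replicate 1, 0.0676 without replicate 3 of that group, 0.0652 without HCT 116 siControl replicate 2 and 0.0515 without HCT 116 siControl replicate 3. In siBRG1 cells it was 0.13 without DLD1 siBRG1 replicate 1 (difference 0.45), 0.072 without HCT 116 siBRG1 replicate 1 and 0.102 without HCT 116 siBRG1 replicate 2. It was 0.0523 when only the siBRG1 groups of the 2 lines were fitted. Of the genes beside PMS2, CCZ1 (-0.38, SE 0.20, adjusted p = 0.194) and the translation kinase gene EIF2AK1 (-0.05, SE 0.17, adjusted p = 0.881) were not called between siControl cells. Between siBRG1 cells both were lower in HCT 116, CCZ1 by -0.71 (SE 0.20, adjusted p = 0.0131) and EIF2AK1 by -0.69 (SE 0.17, adjusted p = 0.0052). EIF2AK1 also fell by 0.73 after siBRG1 in HCT 116 (SE 0.17, adjusted p = 0.0167).

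PMS1 forms a MutL dimer whose part in repair is not well defined. Its levels were 10.21, 10.46 and 10.07 in HCT 116 siBRG1 and 10.01, 10.08 and 9.92 in HCT 116 siControl. They were 8.95, 9.71 and 9.43 in DLD1 siBRG1 and 8.81, 9.60 and 9.21 in DLD1 siControl. The lines did not overlap over their 6 arrays each. PMS1 was higher in HCT 116 by 0.80 (SE 0.23, adjusted p = 0.017) in siControl cells and by 0.88 (SE 0.23, adjusted p = 0.00816) in siBRG1 cells. The siControl call was lost without DLD1 siControl replicate 1 (0.60, adjusted p = 0.0909), the lowest of the 12 arrays, and without HCT 116 siControl replicate 2 (0.76, adjusted p = 0.0557). Its neighbours ORMDL1 (0.25, SE 0.24, adjusted p = 0.521) and AKAP19 (0.09, SE 0.25, adjusted p = 0.843) were not called between siControl cells. Between siBRG1 cells AKAP19 was higher in HCT 116 (1.07, SE 0.25, adjusted p = 0.0045) and ORMDL1 was not called (0.23, SE 0.24, adjusted p = 0.547).

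MLH3, whose MutL dimer is best known as the nuclease that resolves meiotic crossovers, was lower in HCT 116. Its levels were 8.67, 8.16 and 7.77 in HCT 116 siBRG1 and 7.91, 7.49 and 7.63 in HCT 116 siControl. They were 8.90, 8.70 and 9.08 in DLD1 siBRG1 and 8.37, 8.74 and 8.76 in DLD1 siControl. The highest HCT 116 array reached into the DLD1 range, and each neighbouring pair of group means (7.68, 8.20, 8.62 and 8.89, in the order HCT 116 siControl, HCT 116 siBRG1, DLD1 siControl, DLD1 siBRG1) overlapped in its arrays. In siControl cells the line difference was -0.95 (SE 0.23, 95% interval -1.43 to -0.46, adjusted p = 0.00541) and it passed in every alternative run.

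In siBRG1 cells the MLH3 difference was -0.69 (SE 0.23, adjusted p = 0.032). It did not pass without DLD1 siBRG1 replicate 1 (adjusted p = 0.0704) or 3 (0.115), nor without HCT 116 siBRG1 replicate 2 (0.0803) or 3 (0.162, difference -0.47). It also missed the threshold with only the siBRG1 groups fitted (0.0531), after a further quantile normalization (0.0923) and after centring each array on its median (0.0735). Beside MLH3, EIF2B2, a subunit of a translation initiation factor, was lower in HCT 116 siControl (-0.94, SE 0.18, adjusted p = 0.000998), and ACYP1, an acylphosphatase gene, was higher (1.0, SE 0.26, adjusted p = 0.00793). In siBRG1 cells EIF2B2 (-0.81, adjusted p = 0.00268) was again lower in HCT 116 and ACYP1 (0.96, adjusted p = 0.00942) higher.

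EXO1, the exonuclease that removes the error-containing strand, was lowest in HCT 116 siBRG1. Its levels were 11.91, 11.75 and 11.87 in HCT 116 siBRG1, against 12.45, 12.34 and 12.42 in HCT 116 siControl. They were 12.161, 12.317 and 12.003 in DLD1 siBRG1, against 12.10, 12.24 and 12.22 in DLD1 siControl. HCT 116 siBRG1 lay below, and HCT 116 siControl above, every other array. EXO1 did not pass between the lines, at 0.21 (SE 0.16, 95% interval -0.13 to 0.55, adjusted p = 0.379) in siControl cells and -0.32 (SE 0.16, 95% interval -0.66 to 0.02, adjusted p = 0.163) in siBRG1 cells. Its neighbour OPN3, an opsin gene, was lower in HCT 116 siControl (-3.56, SE 0.32, adjusted p = 5.21e-07), and BECN2 was not called (0.11, SE 0.24, adjusted p = 0.792). In siBRG1 cells OPN3 had -4.15 (SE 0.32, adjusted p = 8.84e-08) and BECN2 -0.02 (SE 0.24, adjusted p = 0.956).

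After siBRG1, 1 of the 6 genes was called in HCT 116 and 0 in DLD1. In HCT 116 6.95% of all genes were called, 4.13% as lower, so 1 of 6 is not a count that sets the genes apart. In DLD1 0.198% of all genes were called, 35 in all. At an unadjusted p under 0.05 by limma there were 1860 genes, and none of these was among the 6. With the replicate number of each line as a block, 98 genes passed in DLD1 and again 0 of the 6. Same-numbered DLD1 arrays deviated together. The block was fitted to all arrays and paired those of HCT 116 too, so the 98 do not come from pairing DLD1 alone. In simulated data on the DLD1 design (17687 genes, 50 changed by each amount), 4% of genes changed by 0.5 were called, 56% of those changed by 1 and 96% of those changed by 2, so a change of the size seen here would mostly be missed.

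EXO1 was the called gene. It averaged 11.85 ± 0.08 in HCT 116 siBRG1 and 12.40 ± 0.06 in HCT 116 siControl (SD, n = 3 each), without overlap, as for 24.9% of all genes. It fell by 0.56 (SE 0.16, 95% interval -0.90 to -0.22, adjusted p = 0.0486), or 1.47-fold. The call stood at the edge of the threshold. It was lost in each of the 12 fits that left out 1 array (adjusted p from 0.0525 to 0.151), DLD1 arrays included, with the size between -0.59 and -0.51. It was also lost with only the HCT 116 groups (0.0928), after quantile normalization (0.0537), after centring (-0.48, adjusted p = 0.102) and with unnamed features kept (0.0548). Over all alternatives the adjusted p ran from 0.0208 to 0.151. In DLD1 EXO1 had -0.03 (SE 0.16, 95% interval -0.37 to 0.31, adjusted p = 0.984). The difference between the lines' changes was -0.53 (SE 0.23, 95% interval -1.01 to -0.05, adjusted p = 0.487) and did not pass.

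MSH6 had the largest siBRG1 difference of the 6 in HCT 116, at -0.81 (SE 0.28, 95% interval -1.39 to -0.22), and its groups did not overlap. It missed the threshold over all genes (adjusted p = 0.0982 by limma). It passed with array weights (-0.90, adjusted p = 0.0282) and without DLD1 siControl replicate 1 (-0.81, adjusted p = 0.044), the array with the lowest MSH6 level. It also passed with the replicate block, given below, and without both DLD1 arrays numbered 1 (adjusted p = 0.0299). The latter run was added after seeing the data. In DLD1 MSH6 had -0.28 (SE 0.28, 95% interval -0.86 to 0.31, adjusted p = 0.83). The average over both lines was -0.54 (SE 0.19, adjusted p = 0.108), and it passed with array weights (-0.58, adjusted p = 0.0415) and without DLD1 siControl replicate 1 (-0.71, adjusted p = 0.0236). The line-by-siRNA difference was -0.53 (SE 0.39, 95% interval -1.36 to 0.30, adjusted p = 0.799).

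MLH3 had a positive value in both lines, 0.53 in HCT 116 (SE 0.23, 95% interval 0.04 to 1.01, adjusted p = 0.206) and 0.27 in DLD1 (SE 0.23, 95% interval -0.22 to 0.76, adjusted p = 0.785). Neither value passed, nor did the average of 0.40 (SE 0.16, adjusted p = 0.159). PMS1 had 0.24 in HCT 116 (SE 0.23, adjusted p = 0.633) and 0.16 in DLD1 (SE 0.23, adjusted p = 0.905). MSH3 had -0.27 in HCT 116 (SE 0.23, adjusted p = 0.575) and -0.03 in DLD1 (SE 0.23, adjusted p = 0.987). PMS2 had -0.06 in HCT 116 (SE 0.21, 95% interval -0.50 to 0.39, adjusted p = 0.926) and -0.00 in DLD1 (SE 0.21, 95% interval -0.44 to 0.44, adjusted p = 1). An adjusted p above the threshold does not show that these genes were unaffected. Averaged over the lines, 0 of the 6 genes passed, against 8.68% of all genes, and 0 passed for the difference between lines, against 0.334%.

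**Figure D3:**
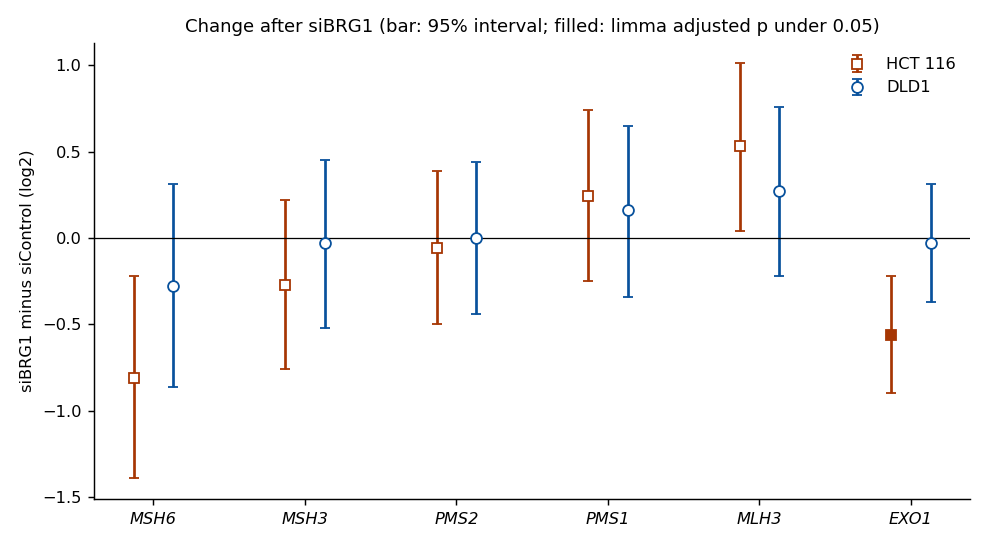
siBRG1 minus siControl on the log2 scale (vertical axis) for each gene in HCT 116 and DLD1, with 95% intervals from limma (3 arrays per group). Filled symbols passed at an adjusted p under 0.05; EXO1 in HCT 116 is the 1 filled symbol, and its interval in DLD1 spans 0.

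The proteins that fill the gap were read in a list of 16 genes. They were the sliding clamp PCNA, its loader RFC, the single-strand binding protein RPA, DNA polymerase delta and the ligase LIG1. The list also held SSBP1, the gene of a mitochondrial single-strand binding protein. Its RPA4 had group means between 3.34 and 3.81, where a level cannot be told from background. In HCT 116 siBRG1 5 of the 16 were lower and 0 higher, where 4.13% of all genes were called lower. The list had a median of -0.52, against -0.01 over all genes. LIG1, which seals the repaired nick, averaged 6.27 ± 0.57 in HCT 116 siBRG1 and 7.50 ± 0.76 in HCT 116 siControl (SD, n = 3 each), a fall of -1.23 (SE 0.34, adjusted p = 0.042), with overlapping arrays (5.73 to 6.88 and 6.62 to 7.95). RPA2 fell by 0.96 (SE 0.23, adjusted p = 0.0203), to 9.40 ± 0.28 in HCT 116 siBRG1 against 10.36 ± 0.12 in HCT 116 siControl. PCNA fell by 0.77 (SE 0.21, adjusted p = 0.0443), and the clamp loader gene RFC5 fell by 0.69 (SE 0.20, adjusted p = 0.0486). The fifth called gene was RPA1 (-0.60, SE 0.17, adjusted p = 0.0459), named after its value was seen.

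In DLD1 0 of the 16 genes passed, with a median of -0.06 against 0.01 over all genes. LIG1 was the largest there, at -1.07 (SE 0.34, adjusted p = 0.232). For the difference between lines 0 of 16 passed. Averaged over both lines, 8.68% of all genes were called, in either direction. Over both lines 4 of 16 were lower: LIG1 (-1.15, adjusted p = 0.00945), RPA2 (-0.93, adjusted p = 0.00345), PCNA (-0.70, adjusted p = 0.0111) and RFC5 (-0.49, adjusted p = 0.041). Between siControl lines 2 were higher in HCT 116 (RFC5 1.01, RFC3 0.87) and 2 lower (LIG1 -1.35, POLD3 -0.93), near the 27.6% of all genes called there. Between siBRG1 lines 1 was higher (RFC5, 0.61) and 4 were lower (POLD3 -1.61, LIG1 -1.50, RPA1 -0.82, POLD2 -0.66), near the 30.8% of all genes.

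Of 10 measured genes otherwise tied to mismatch repair or to helicases that work with it, 1 passed in HCT 116 siBRG1, near the 6.95% of all genes. This was BLM, the helicase lost in Bloom syndrome, at -0.99 (SE 0.24, adjusted p = 0.0225), with 9.47 ± 0.38 in HCT 116 siBRG1 and 10.46 ± 0.05 in HCT 116 siControl (SD, n = 3 each). In DLD1 0 of 10 passed, and BLM had -0.56 (SE 0.24, adjusted p = 0.433). Between siControl lines 1 passed, the meiotic MutS gene MSH4, lower in HCT 116 (-1.37, SE 0.49, adjusted p = 0.0482). Its group means ran between 3.79 and 5.56, where a level cannot be told from background. Between siBRG1 lines MSH4 (-1.77) and MCM8 (-0.67), a helicase of recombination, were lower in HCT 116 and the helicase gene HELB was higher (0.58). These line counts, 1 and 3 of 10, were not above the shares of all genes called (27.6% and 30.8%).

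In HCT 116 siBRG1, where 4.13% of all genes were called lower, 6 of the 26 partner genes (both lists together) were lower. This count varied with single arrays: it was 0 without HCT 116 siControl replicate 2 or 3, 1 without HCT 116 siBRG1 replicate 2 or 3, 2 without DLD1 siControl replicate 1 or 3, and 3 without DLD1 siControl replicate 2, DLD1 siBRG1 replicate 2 or HCT 116 siControl replicate 1. Centring the arrays left 2 and quantile normalization 3.

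Genes of DNA replication were lower in the same arrays. Of 33 measured genes of S phase, 21 were lower and 0 higher in HCT 116 siBRG1, where 4.13% of all genes were called lower. Their median was -0.91, against -0.01 over all genes. All 33 values were below 0, as were 9177 of all 17687 genes. The largest were GINS2 (-1.66, SE 0.26, adjusted p = 0.00146) and the origin licensing gene CDT1 (-1.54, SE 0.29, adjusted p = 0.00532). The flap nuclease gene FEN1 had -1.48 (SE 0.20, adjusted p = 0.000766) and POLA2, of DNA polymerase alpha, -1.44 (SE 0.21, adjusted p = 0.000977). In DLD1 0 of 33 passed, with a median of -0.45 against 0.01 over all genes. There 31 of the 33 values were below 0, against 8480 of all 17687 genes. For the difference between lines 0 of 33 passed. The part of S phase genes in the EXO1, LIG1 and PCNA values was not tested. In bulk RNA fewer cells in S phase and less RNA per cell cannot be told apart.

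**Figure D4:**
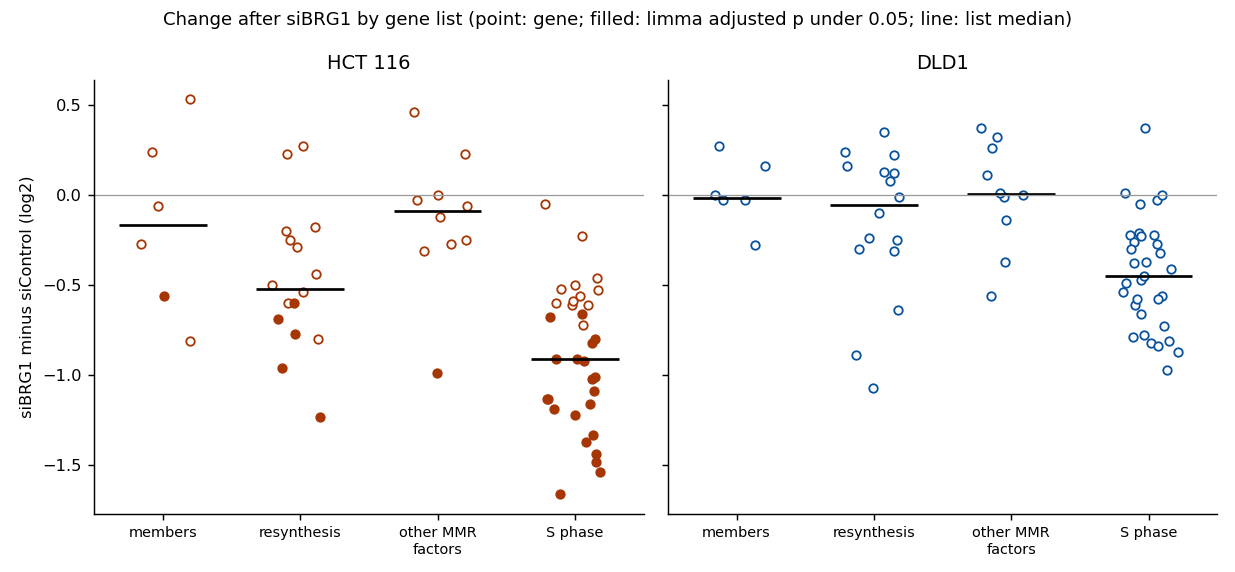
siBRG1 minus siControl on the log2 scale (vertical axis) for each gene of 4 lists in HCT 116 (left) and DLD1 (right). Filled points passed at an adjusted p under 0.05, and black lines are list medians. In HCT 116 the S phase list has 21 filled points and the mismatch repair genes have 1; in DLD1 none is filled.

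The genes whose levels ran most like those of MSH6 over the 12 arrays were INPP5F (Pearson r = 0.991), ESRP1 (0.99) and RAB38 (0.989). For MSH3 they were NNT (0.995), SMAP1 (0.993) and SLC7A8 (0.993). These correlations span both lines and so include the line difference. Within the 6 arrays of a line, NNT had r = 0.916 in HCT 116 and -0.375 in DLD1, whereas INPP5F had 0.875 in HCT 116 and 0.908 in DLD1. The 6 arrays of a line hold both siRNA groups, so every within-line value here and below includes any siBRG1 difference. All of these are descriptions of 12 arrays with no test.

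For PMS1 the most alike were RAD52 (r = 0.981, and 0.831 within HCT 116 and 0.959 within DLD1), MDM4 (0.974) and ZDHHC17 (0.973). For PMS2 they were RECQL5 (0.96, and 0.553 within HCT 116 and 0.983 within DLD1), RALGDS (0.95) and FXR2 (0.948). For MLH3 they were GRHL1 (0.954), INTS7 (0.95) and WDR7 (0.945). EXO1 ran closest to ASIC1 (0.981, and 0.997 within HCT 116 and 0.893 within DLD1), NT5DC2 (0.945) and LGALS3BP (0.934). ASIC1 averaged 4.99 ± 0.31 in HCT 116 siBRG1 and 7.30 ± 0.38 in HCT 116 siControl (SD, n = 3 each).

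Among the 6 genes themselves, MSH6 and MSH3 had r = -0.955 over the 12 arrays and -0.07 after group means were removed, so the opposition lay between the lines. PMS1 and PMS2 had 0.92 over the 12 arrays and 0.802 after group means were removed, and MSH6 and PMS1 had 0.86 and 0.806. MSH3 and EXO1 had 0.161 and -0.155. DLD1 replicate 1 of both siRNAs was the lowest array of its group for PMS1 and for MSH6.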

How the data were processed

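Total RNA of HCT 116 and DLD1 cells was measured on 1 array per sample. The deposited log2 values come from the authors' RMA run of Affymetrix Power Tools, as the submitters' processing notes name them. Neither versions nor a build are given in the sources used here. In RMA, probe signals are background-corrected, brought to 1 distribution over arrays and summarised per feature. Values ran from 2.16 to 18.05, and 94 to 112 per array exceeded 16, the scanner's limit, so the scale holds a further step that the labels do not name. Of 21448 features, 17709 had 1 gene symbol, 0 had several and 3739 had none. Where a gene had more than 1 feature (20 genes) the feature of highest mean was kept, leaving 17687 genes. Gene order and promoters came from RefSeq (GRCh38.p14).

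Samples were grouped by title. The source names of some HCT 116 samples carry other numbers than their titles. No label says whether replicate arrays had separate cultures, and the p-values therefore reflect only the spread between these arrays, which may be technical. The number of arrays limits the precision.

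limma 3.58.1 in R 4.3.3 fitted 4 group means over 12 arrays (8 residual and 6.66 prior degrees of freedom), with Benjamini-Hochberg adjustment over all genes. The contrasts took siBRG1 minus siControl within a line, the average and the difference of both lines' changes, and HCT 116 minus DLD1 within each siRNA. The fit was tested on simulated data. Batches of slide or scan were not tested, as the sources used here name none.

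The 6 genes and the lists were chosen with earlier results of these data known. The genes named were all 6, SMARCA4, up to 4 called genes of largest change per list and contrast (the largest where none was called), the nearest analysed neighbours, and the 3 genes of highest correlation with each. Same-numbered DLD1 arrays deviated from their group means together (r = 0.485, 0.459 and 0.291, each over 0.1), and the numbers were read as pairs there, which comes from the data, not the labels. In HCT 116 (0.299, 0.149 and 0.028) they were not read as pairs. Alternatives were the replicate block, only the groups compared, quantile normalization, median centring, 2 filters on level, averaged features, a robust and trended prior, array weights, an adjusted p under 0.01, unnamed features kept and each array left out. Leaving out both arrays numbered 1 of a line was added after seeing the data.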

Additional observations from a re-analysis of the deposited data

How the results depend on the processing

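The MSH3 and MSH6 line differences and the MLH3 difference in siControl cells passed in every alternative run: MSH6 3.72 to 4.28, MSH3 -3.18 to -3.04 and MLH3 -1.07 to -0.85 (siControl cells). Of 900 values of the 6 genes under alternatives, 822 kept direction and call. Another 45 lost a call, 8 gained one and 25 changed sign (5 outside the fits that left out 1 array). Many estimates could not move: each gene had 1 feature to average, and the stricter threshold reused the main fit. Leaving out an array outside the groups compared also kept the estimate, so the 822 are no measure of stability. Calls in HCT 116 after siBRG1 were the least stable, and the causes were not tested.

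With the replicate block, called genes over the whole table became 98 in DLD1 (35 without it), 2123 in HCT 116 (1230), 2476 for the average (1536) and 102 for the difference (59). Of the mismatch repair genes the block gave 2 calls in HCT 116 (MSH6 added, adjusted p = 0.0137). It gave 1 for the average (MSH6, 0.0152). The block paired same-numbered arrays in both lines, although the HCT 116 numbers were not read as pairs. For the line comparisons it joined equal replicate numbers across the lines. With array weights the whole-table counts were 128, 2035, 2306 and 162 in that order, the 6 genes gave 2 calls in HCT 116 and 1 for the average, and the partner list 8 between siControl lines (5). With only the groups compared DLD1 gave 4, the 6 genes 0 in HCT 116 and 3 between siBRG1 lines (5), and the partner list 3 in HCT 116 (6). A trended and robust prior gave 63 in DLD1. Quantile normalization, centring and unnamed features each left 0 of the 6 genes in HCT 116, with 3, 2 and 2 partner genes. Centring moved the share of HCT 116 calls that were higher to 53.6% (40.6% as deposited), and it turned PMS2 to 0.02 in HCT 116 and 0.07 for the difference.

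At an adjusted p under 0.01 the whole-table counts were 11 in DLD1, 418 in HCT 116, 494 for the average and 16 for the difference. The 6 genes then gave 0 in HCT 116 and 3 in each line comparison, and the partner list 0 in HCT 116, 2 for the average (5) and 3 between siBRG1 lines (8). Without both DLD1 arrays numbered 1, DLD1 gave 11 and the difference 18. The 6 genes then gave 1 for the average and 3 between siBRG1 lines, the partner list 3 in HCT 116, and PMS2 was 0.14 in DLD1 and 0.04 for the average (0.08 in DLD1 with array weights). Without both HCT 116 arrays numbered 1, HCT 116 gave 0 of the 6 genes and 3 partner genes.

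Leaving out 1 array at a time, whole-table counts ran from 7 to 66 in DLD1, 618 to 1271 in HCT 116, 797 to 1593 for the average and 26 to 71 for the difference. Calls among the 6 genes ran from 0 to 1 in HCT 116 and for the average, and from 3 to 5 in both line comparisons. Partner calls in HCT 116 ran from 0 to 6. Values that changed sign were MSH3 in HCT 116 (-0.54 to 0.01) and for the difference (-0.51 to 0.04), PMS1 in DLD1 (-0.04 to 0.36) and for the difference (-0.12 to 0.28), PMS2 in DLD1 (-0.13 to 0.20), HCT 116 (-0.15 to 0.08), the average (-0.09 to 0.07) and the difference (-0.26 to 0.08), and EXO1 in DLD1 (-0.11 to 0.05). Of the 33 S phase genes, 13 (adjusted p under 0.01) to 27 (array weights) were called in HCT 116 under the alternatives run, against 21, and 2 in DLD1 with array weights, against 0.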

Other observations

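Genes of base damage repair, the glycosylases and direct reversal enzymes, were read as a comparison list of 12. In HCT 116 siBRG1, where 6.95% of all genes were called, 2 of the 12 passed in limma, in opposite directions. UNG, which removes uracil from DNA, fell by 1.74 on the log2 scale (SE 0.29, adjusted p = 0.00258), to 8.30 ± 0.34 in HCT 116 siBRG1 against 10.05 ± 0.46 in HCT 116 siControl (SD, n = 3 each). TDG, which removes thymine and uracil from mismatches with guanine, rose by 1.15 (SE 0.27, adjusted p = 0.0182), with 10.77 ± 0.36 in HCT 116 siBRG1 and 9.63 ± 0.44 in HCT 116 siControl. In DLD1 0 of 12 passed, and UNG had -0.16 (SE 0.29, adjusted p = 0.93) and TDG -0.06 (SE 0.27, adjusted p = 0.979). The difference between the lines did not pass for UNG (-1.58, SE 0.41, adjusted p = 0.157) or TDG (1.20, SE 0.38, adjusted p = 0.264).

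Between siControl lines 7 of the 12 passed (5 higher and 2 lower in HCT 116), where 27.6% of all genes did. ALKBH2, a DNA demethylase, was higher in HCT 116, at 11.55 ± 0.35 against 9.15 ± 0.36 in DLD1 (SD, n = 3 each), a difference of 2.39 (SE 0.31, adjusted p = 2.14e-05). The oxidised base glycosylases NEIL2 (1.78, adjusted p = 4.68e-06) and NEIL1 (1.07, adjusted p = 0.000804) were also higher in HCT 116. MPG, which removes alkylated bases, was lower (-1.43, adjusted p = 0.000887).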
